A study of Mus musculus with 44 samples.

Results

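Microglia without Apoe were set against microglia with the unedited mouse gene, across all expressed genes. The KO group has 4 libraries of primary microglia from Apoe knock-out mice (1 female, 3 male) and the WT group has 6 from mice with wild-type Apoe (3 female, 3 male), together 10 of the 44 libraries in the series. Every KO library is tagged batch 1 and every WT library batch 2, so genotype and batch coincide and cannot be told apart in any value that sets KO against WT. The same tag puts 6 APOE33 and 6 APOE44 microglia libraries, from mice in which human APOE3 or APOE4 replaces the mouse gene, in batch 1 with the KO. Those libraries are given beside KO and WT for many genes. A value given against WT alone says nothing of a difference within batch 1. All cells were grown in culture without treatment, and the sources used here give neither age nor strain. Female and male libraries of a group must come from different animals, but nothing in the labels tells if libraries of the same sex do, or if they are separate cultures. The p values therefore describe the variation among the libraries at hand, which may be technical in part.

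Apolipoprotein E is the main lipid carrier that glia secrete in the brain. Cells take it up with its cholesterol through lipoprotein receptors, and LXR, a nuclear receptor that oxysterols activate, drives Apoe together with the ABC transporters that load lipid onto it. When cholesterol in the endoplasmic reticulum is low, the membrane-bound factor SREBP2 leaves that compartment with its escort SCAP. SREBP2 then switches on genes of cholesterol synthesis and uptake. Microglia, the resident macrophages of the brain, are known to raise Apoe in the disease-associated state that depends on the receptor TREM2.

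Total counts ran from 98006360 to 106646895 in KO and from 86313947 to 116396632 in WT libraries, and RIN, a score of RNA integrity, from 9.6 to 9.9 and from 9.8 to 9.9. Between 21687 and 22545 genes had a count in KO libraries, against 22977 to 25105 in WT. On the first principal component of the 22 microglia libraries (30.9% of variance), KO lay at 12.5 to 17.2, APOE33 at -1.72 to 50.9, APOE44 at 29.5 to 46.3 and WT at -77.9 to -57.9, so batch 1 and batch 2 libraries did not overlap on it. Among counts from 1 to 9, 66.7% to 68.8% were even in KO and 70.1% to 72.6% in WT, and the cause was not tested. All levels below are CPM, counts scaled to a common library total, after TMM scaling, and they compare libraries, not genes, since they are not per length.

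Apoe (ENSMUSG00000002985.16, chromosome 7, 19696109 to 19699188 on GRCm38) was low in every KO library and high in every WT library. It stood at 14.7, 7.84, 6.24 and 23.2 CPM in the KO libraries, against a lowest of 37890, a median of 42220 and a highest of 50840 CPM in WT. The 2 groups were far apart, and the log2 fold change, KO over WT, was -11.70 (SE 0.42, edgeR adjusted p = 3.6e-13). The mouse gene averaged 46.4 ± 11.8 CPM in the 6 APOE33 libraries and 45.4 ± 3.83 CPM in the 6 APOE44 libraries (mean and SD).

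Of 18079 genes tested, 7671 (42.4%) were called changed between KO and WT at an adjusted p under 0.05, 3786 (20.9%) higher and 3885 (21.5%) lower in KO. The median log2 fold change over all genes was -0.03. Most called differences were small, with a median absolute log2 fold change of 0.42 among the called genes. At least a log2 fold change of 1 was reached by 586 rises (3.24%) and 1370 falls (7.58%). The larger falls were mostly of scarce transcripts: 77.8% of them had a mean under 1 CPM and 30.9% were protein coding, against 48.8% and 75.6% of the larger rises, and 36.4% and 75.1% of all tested genes. Within batch 1, 3899 of 17143 genes (22.7%) were called between KO and APOE33, 1863 higher and 2036 lower, and 4616 (26.9%) between KO and APOE44, 2327 higher and 2289 lower. Across the batch tags without a knock-out, 8103 genes (44.8%) were called between APOE33 and WT, 4017 higher and 4086 lower in APOE33. Under upper-quartile scaling that split was 3312 higher and 5073 lower, and the split between KO and WT was 3306 higher and 4514 lower. APOE44 against WT gave 8209 calls (45.4%), 4024 higher and 4185 lower, or 3438 higher and 4992 lower under upper-quartile scaling.

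**Figure D1:**
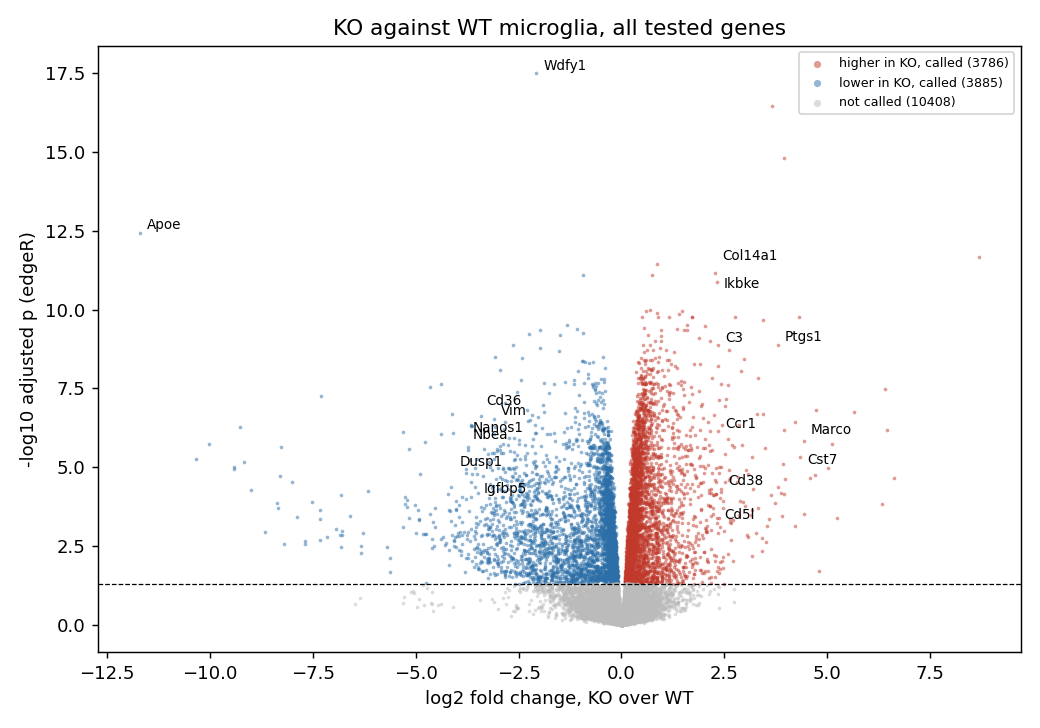
Each of the 18079 tested genes is a point at its log2 fold change, KO over WT (horizontal axis), and the -log10 of its edgeR adjusted p (vertical axis), with the dashed line at an adjusted p of 0.05. Genes called higher in KO are red (3786), genes called lower are blue (3885) and genes not called are grey (10408). Apoe lies furthest to the left at -11.70.

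The largest rises among genes of at least moderate level included a scavenger receptor, a protease inhibitor, a cyclooxygenase, an ectoenzyme and a complement component. Marco (chromosome 1, 120474538 to 120505024), a scavenger receptor for bacteria and modified lipoproteins, stood at 59.4, 71.2, 67.7 and 84.4 CPM in KO, against a lowest of 1.29, a median of 2.58 and a highest of 7.57 CPM in WT. All 4 KO libraries were above all WT libraries, at a log2 fold change of 4.43 (SE 0.50, edgeR adjusted p = 1.51e-06). APOE33 averaged 12.5 ± 7.26 and APOE44 10.4 ± 4.36 CPM (SD, n = 6 each), and KO was higher than either, by 2.82 and 2.98 (edgeR adjusted p = 0.000356 and 0.000122). Cd38 (chromosome 5, 43868553 to 43912375), an NAD-consuming ectoenzyme, had 36.6, 96.7, 69.6 and 45.2 CPM in KO, against 7.85, 12.3 and 16.04 CPM as the lowest, median and highest in WT. The rise was 2.42 (SE 0.38, edgeR adjusted p = 4.9e-05), and against APOE33 and APOE44 it was 2.11 and 2.44 (edgeR adjusted p = 0.00354 and 0.000867). Cd5l, a macrophage protein that limits cell death, rose by 2.32, with levels that varied among the KO libraries, 395 CPM in replicate 1 and 111 to 202 CPM in the other 3, against 22.8 to 75.0 CPM in WT (SE 0.47, edgeR adjusted p = 0.000581). It was also higher than in APOE33 and APOE44, by 2.64 and 1.98 (edgeR adjusted p = 0.00046 and 0.00205).

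Other large rises set batch 1 as a whole apart from WT. Cst7 (chromosome 2, 150570415 to 150578944), a cysteine protease inhibitor of disease-associated microglia, had 221, 157, 151 and 250.0 CPM in KO, against a lowest of 2.34, a median of 4.90 and a highest of 28.1 CPM in WT. The groups did not overlap, and the log2 fold change was 4.34 (SE 0.54, edgeR adjusted p = 4.82e-06). APOE33 stood at 175 ± 41.8 and APOE44 at 116 ± 50.9 CPM (SD, n = 6 each), and KO differed from them by 0.18 and 0.77, short of the threshold (edgeR adjusted p = 0.729 and 0.0686). Ptgs1, the constitutive cyclooxygenase, rose by 3.79 against WT (SE 0.24, edgeR adjusted p = 1.3e-09), with 165 to 318 CPM in KO and 12.5 to 31.9 CPM in WT. Its log2 difference was 0.22 from APOE33 and 0.43 from APOE44 (edgeR adjusted p = 0.431 and 0.0779). Col14a1, a fibril-associated collagen, rose by 2.27 (SE 0.11, edgeR adjusted p = 6.84e-12) at 48.4 ± 5.08 CPM in KO (SD, n = 4), 50.2 ± 6.58 in APOE33, 48.1 ± 5.19 in APOE44 and 10.1 ± 1.28 CPM in WT (SD, n = 6 each). The chemokine receptor gene Ccr1 rose by 2.34 (edgeR adjusted p = 7.24e-07), and its log2 values against APOE33 and APOE44 were 0.58 and 0.52 (edgeR adjusted p = 0.199 and 0.198). Ikbke, a kinase of the interferon pathway, had a value of 105 CPM in KO replicate 1 and 124 to 125 CPM in the other 3, against 19.3 to 29.0 CPM in WT. It rose by 2.31 against WT (edgeR adjusted p = 1.35e-11) and by 0.76 and 0.69 against APOE33 and APOE44 (edgeR adjusted p = 0.000299 and 0.000288).

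Among genes of at least moderate level, the largest falls after Apoe included an immediate early phosphatase, a fatty acid receptor and an intermediate filament. Dusp1 (chromosome 17, 26505590 to 26562128), which switches off MAP kinases, had 4.77, 5.55, 6.15 and 6.44 CPM in KO, against a lowest of 30.4, a median of 34.6 and a highest of 42.5 CPM in WT. No KO library came near a WT library, and the log2 fold change was -2.62 (SE 0.34, edgeR adjusted p = 6.04e-06). It was lower by about as much within batch 1, at -2.56 against APOE33 and -3.02 against APOE44 (edgeR adjusted p = 0.000421 and 8.92e-05). Igfbp5, an insulin-like growth factor binding protein, had 120 CPM in KO replicate 1 and 26.3 to 65.6 CPM in the other 3, against 203 to 323 CPM in WT. Its log2 values were -2.04 against WT, -1.88 against APOE33 and -2.05 against APOE44 (edgeR adjusted p = 4.53e-05, 0.00148 and 0.000667). Cd36 (chromosome 5, 17781690 to 17888801), a receptor for fatty acids and oxidized lipoproteins, had 90.2, 99.9, 138 and 107 CPM in KO, against a lowest of 309, a median of 529 and a highest of 732 CPM in WT. It fell by 2.16 on the log2 scale against WT (SE 0.21, edgeR adjusted p = 2.29e-07), by 0.85 against APOE33 and by 1.02 against APOE44 (edgeR adjusted p = 0.000605 and 9.31e-05). Nbea, a scaffold of vesicle trafficking, and Nanos1, an RNA-binding protein, lay in the same order, with log2 values of -2.48 and -2.11 against WT (edgeR adjusted p = 1.9e-06 and 4.69e-07) and of -1.32 and -1.19 against APOE33 (edgeR adjusted p = 0.00888 and 0.00195). Vim, the filament protein vimentin, had a log2 value of -2.03 against WT (edgeR adjusted p = 2.62e-07), while its mean was 200 ± 42.5 CPM in KO (SD, n = 4), 202 ± 34.3 in APOE33, 260 ± 60.0 in APOE44 and 832 ± 162 CPM in WT (SD, n = 6 each). Ahnak, a large scaffold protein, fell by 2.08 against WT (edgeR adjusted p = 1.71e-05) and was higher in KO than in APOE33 by 1.04 (edgeR adjusted p = 0.00952).

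Wdfy1 (chromosome 1, 79702262 to 79776143), an adaptor on endosomes that carry TLR3, followed neither the batch tag nor the presence of mouse Apoe. It had 12.9, 12.4, 13.8 and 13.5 CPM in KO, against a lowest of 53.1, a median of 55.0 and a highest of 56.8 CPM in WT, a log2 fold change of -2.06 (SE 0.05, edgeR adjusted p = 3.24e-18). APOE44 was close to KO at 14.5 ± 0.87 CPM and APOE33 close to WT at 55.8 ± 1.66 CPM (SD, n = 6 each). KO against APOE33 was -2.08 and KO against APOE44 -0.14 (edgeR adjusted p = 7.78e-13 and 0.0457).

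**Figure D2:**
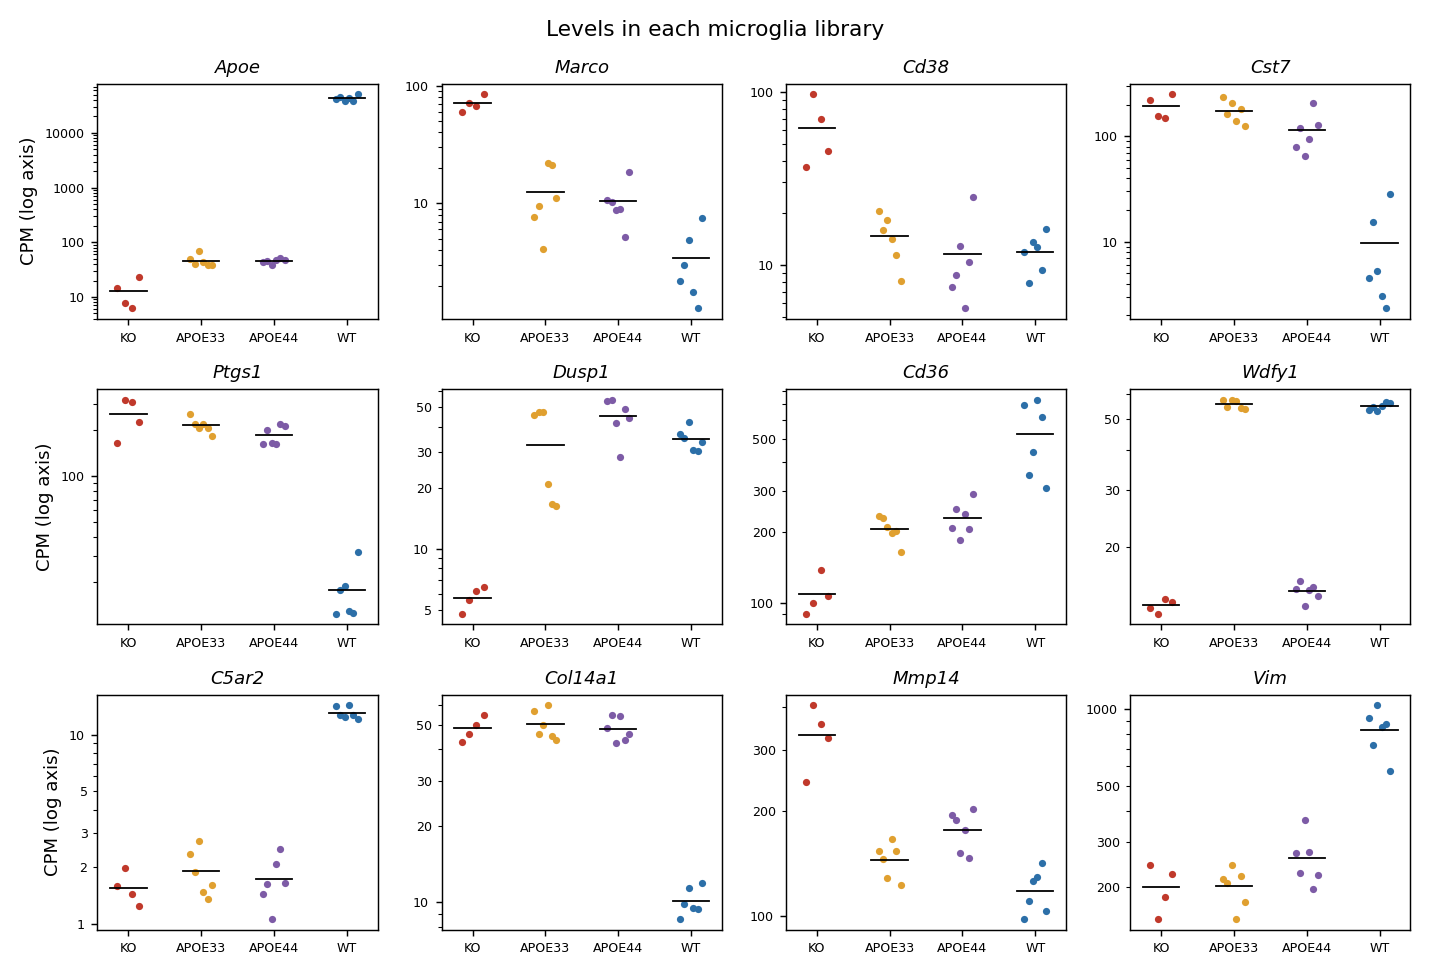
CPM on a log axis for 12 genes, with 1 point per library and a line at the group mean, for KO (4 libraries), APOE33, APOE44 and WT (6 each). KO stands apart from the other 3 groups in Marco, Cd38, Dusp1 and Mmp14, the batch 1 groups stand together against WT in Cst7, Ptgs1, C5ar2, Col14a1 and Vim, and KO and APOE44 stand together in Wdfy1.

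All 20 enzymes of cholesterol biosynthesis rose in KO, with a median log2 fold change of 1.14, against 20.9% of all genes called higher and a median of -0.03. Their summed level was 1650, 1314, 1606 and 1362 CPM in the KO libraries, against 484 to 993 CPM in WT. For each of the 20, every KO library was above every WT library, where 36.1% of all tested genes had groups that did not overlap. The rises run along the whole route. At its start Acat2, which joins acetyl-CoA units, rose by 1.57, and Hmgcs1, the synthase that makes HMG-CoA, by 0.91 (edgeR adjusted p = 2.14e-06 and 0.00481). In the isoprenoid steps Mvk, Pmvk, Mvd, Idi1 and Fdps rose by 0.81, 1.15, 1.67, 1.08 and 1.29. Fdps has processed copies elsewhere in the genome, so its counts are uncertain. At the entry to sterols Fdft1, squalene synthase, rose by 1.47, Sqle, squalene epoxidase, by 1.09 and Lss, which closes the rings, by 1.57.

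Among the enzymes that turn lanosterol into cholesterol, the largest rise was that of the sterol reductase gene Tm7sf2 (chromosome 19, 6062821 to 6068373), with 33.7, 27.3, 31.0 and 27.1 CPM in KO, against a lowest of 8.09, a median of 8.77 and a highest of 10.7 CPM in WT (1.73, SE 0.11, edgeR adjusted p = 1.73e-10). The smallest was that of the sterol isomerase gene Ebp, at 29.0 to 31.5 CPM in KO and 24.4 to 26.2 CPM in WT (0.25, SE 0.05, edgeR adjusted p = 0.000153). Cyp51, Msmo1, Nsdhl, Hsd17b7, Sc5d and Dhcr7, which carry out the steps between, rose by 0.90 to 1.34. The rise was there within batch 1 as well: all 20 were higher in KO than in APOE33, with a median of 1.502, and all 20 higher than in APOE44, with a median of 1.52. Of all genes 10.9% and 13.6% were called higher in those comparisons. Across the batch tags without a knock-out, 1 of the 20 passed between APOE33 and WT, Tm7sf2, at 0.52 (edgeR adjusted p = 0.000159), and the median was -0.24, where 22.2% of all genes were called higher. The summed level was 406 to 897 CPM in APOE33 and 454 to 668 CPM in APOE44, so that it overlapped WT in both and KO in neither. With male libraries alone, 15 of the 20 rose against WT.

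**Figure D3:**
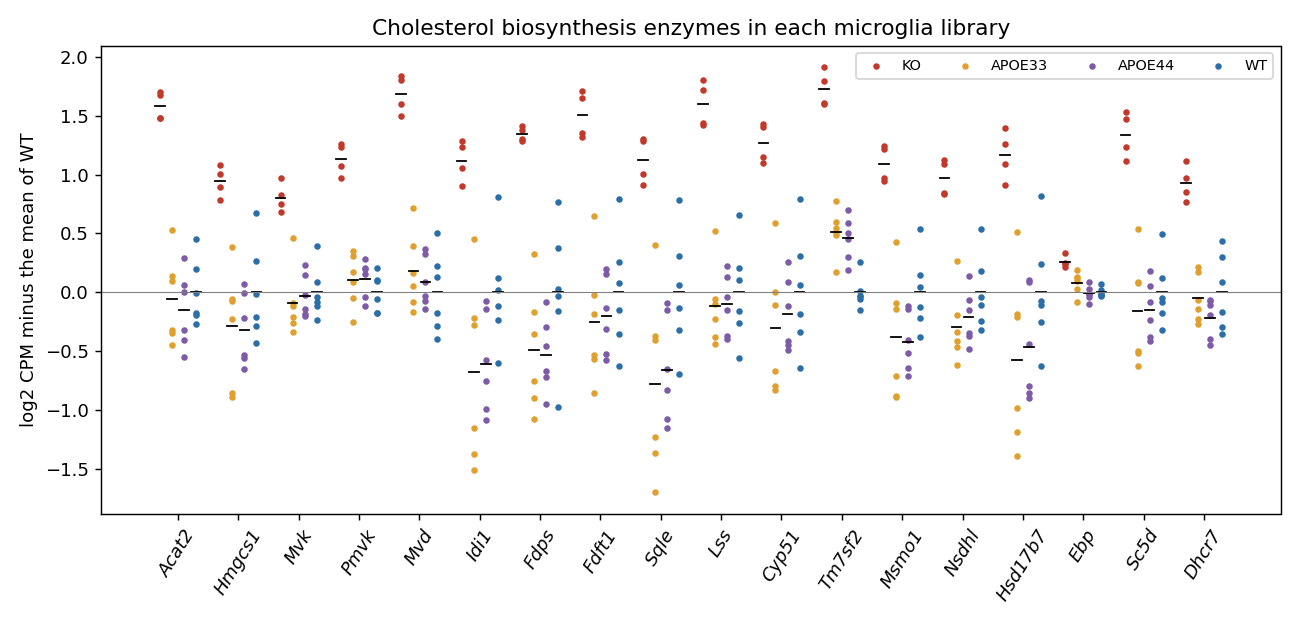
The vertical axis is log2 CPM minus the WT mean of each gene, for 18 of the 20 enzymes in the order of the pathway, with 1 point per library and a line at the group mean. KO points (red) lie above the WT points (blue) for every enzyme shown, and the APOE33 and APOE44 means both lie above the WT mean for Pmvk, Mvd and Tm7sf2 and not for the other enzymes shown.

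The promoters of these enzymes are shown because the genes rose together and because SREBP2 is known to bind sterol elements beside the CCAAT box that the factor NF-Y reads. RefSeq promoters on GRCm38.p6, from 250 bases before to 50 after the start of transcription, were matched for 15 of the 20 enzymes. CCAAT, read on both strands, was in 14 of the 15 genes (93.3%), against 41.1% of all 27025 genes with a promoter. The sterol element TCACNCCA, where N is any base, also read on both strands, was in 2 of the 15 (13.3%), Hmgcs1 and Msmo1, against 4.97% of all genes, and the longer TCACNCCAC, which contains it, in 1 of the 15 (6.67%) against 1.44%. Promoters were also matched for 9 of the 12 tested genes of sterol uptake and SREBP control. Of these 9, CCAAT was in 6 (66.7%), TCACNCCA in 1 (11.1%) and TCACNCCAC in 0. The 1 gene was Srebf2, the gene of SREBP2 itself, which held 1 TCACNCCA and 1 CCAAT. A match of letters is a description and not a bound site. In the promoters below, capitals mark TCACNCCA and CCAAT or its reverse complement ATTGG. They stand at chr13:119690101-119690400 (plus strand) for Hmgcs1, chr5:114444019-114444318 (plus) for Mvk, which has the most CCAAT boxes of those shown, 5, chr8:64733529-64733828 (minus) for Msmo1 and chr15:82147019-82147318 (plus) for Srebf2.
Hmgcs1: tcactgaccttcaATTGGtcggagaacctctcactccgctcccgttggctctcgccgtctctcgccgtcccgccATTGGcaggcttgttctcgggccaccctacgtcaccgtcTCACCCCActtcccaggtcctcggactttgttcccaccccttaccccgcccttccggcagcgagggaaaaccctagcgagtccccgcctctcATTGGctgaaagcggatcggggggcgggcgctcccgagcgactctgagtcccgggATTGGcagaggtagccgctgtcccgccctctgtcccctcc
Mvk: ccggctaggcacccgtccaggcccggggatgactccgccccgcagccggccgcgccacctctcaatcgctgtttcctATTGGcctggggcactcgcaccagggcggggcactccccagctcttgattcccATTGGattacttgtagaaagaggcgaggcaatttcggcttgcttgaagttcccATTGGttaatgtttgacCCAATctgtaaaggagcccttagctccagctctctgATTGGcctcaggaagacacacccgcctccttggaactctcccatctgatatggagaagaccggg
Msmo1: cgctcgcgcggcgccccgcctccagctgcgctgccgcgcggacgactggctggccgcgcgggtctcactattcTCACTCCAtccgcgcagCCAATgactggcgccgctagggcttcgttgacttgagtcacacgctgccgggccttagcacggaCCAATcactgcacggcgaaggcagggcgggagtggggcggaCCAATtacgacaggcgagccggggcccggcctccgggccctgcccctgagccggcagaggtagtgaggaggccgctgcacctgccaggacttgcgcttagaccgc
Srebf2: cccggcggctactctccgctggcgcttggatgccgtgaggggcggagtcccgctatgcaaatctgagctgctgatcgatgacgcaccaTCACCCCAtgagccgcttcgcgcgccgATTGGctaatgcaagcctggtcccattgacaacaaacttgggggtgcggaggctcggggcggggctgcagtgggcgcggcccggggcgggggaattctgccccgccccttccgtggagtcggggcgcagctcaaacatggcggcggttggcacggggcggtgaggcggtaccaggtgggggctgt

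Of 12 tested genes of sterol uptake and SREBP control, 8 (66.7%) rose against WT, where 20.9% of all genes did, and 4 did not pass (median 0.67). Against APOE33 6 were higher and 2 lower, beside 10.9% and 11.9% of all genes. Against APOE44 7 were higher and 2 lower, beside 13.6% and 13.4%. Insig1 (chromosome 5, 28071363 to 28078662), which retains SREBP in the endoplasmic reticulum and is itself induced by it, had 300.0, 213, 249 and 239 CPM in KO, against a lowest of 59.3, a median of 74.0 and a highest of 104 CPM in WT (1.73, SE 0.17, edgeR adjusted p = 2.5e-07). The lowest KO library was above the highest WT library. Insig1 was higher by 1.45 against APOE33 and by 1.38 against APOE44 (edgeR adjusted p = 4.77e-05 and 4.15e-05). Srebf2 rose by 0.78, Stard4, a cytosolic carrier of cholesterol, by 1.14, Scarb1, an HDL receptor, by 0.56 and Lrp8, a receptor for lipoproteins and reelin, by 0.98 (edgeR adjusted p = 1.9e-05, 0.000401, 1.82e-06 and 2.68e-05). Srebf1, the partner of Srebf2 in fatty acid synthesis, rose by 0.86 against WT and passed against APOE44 (0.34) but not APOE33 (0.34; edgeR adjusted p = 1.65e-06, 0.0475 and 0.0656). Mylip, a ubiquitin ligase that LXR induces, was higher than in WT by 0.39 and lower than in APOE33 by 0.45 (edgeR adjusted p = 0.0126 and 0.00741). Scap, Insig2, Lrp1 and Vldlr did not pass against WT.

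Of 14 tested genes of LXR and cholesterol efflux, 7 rose and 1 fell against WT (median 0.38), beside 20.9% and 21.5% of all genes. Against APOE33 4 rose and 2 fell, beside 10.9% and 11.9% of all genes, and against APOE44 4 rose and 2 fell, beside 13.6% and 13.4%. With the 2 groups alone in the fit 3 fell. The cholesterol exporters Abca1 and Abcg1 did not pass, at 0.23 and -0.05 against WT (edgeR adjusted p = 0.209 and 0.864). Abca1 ran from 1312 to 1586 CPM in KO and from 1018 to 1462 CPM in WT, so the groups overlapped. Nr1h3, which encodes LXR alpha, rose by 0.87 against WT and by 1.67 and 1.68 against APOE33 and APOE44 (edgeR adjusted p = 0.000558, 0.000101 and 5.1e-05), at 22.6 ± 3.41 CPM in KO (SD, n = 4), 7.43 ± 2.62 in APOE33, 7.25 ± 0.69 in APOE44 and 12.6 ± 0.93 CPM in WT (SD, n = 6 each). Its partner gene Rxra rose by 0.50 (edgeR adjusted p = 4.32e-08). Smpdl3a, a phosphodiesterase, rose by 0.48 against WT and 1.07 against APOE33 (edgeR adjusted p = 0.000356 and 1.36e-05). Ch25h, which hydroxylates cholesterol to an oxysterol, had 42.1, 40.9, 52.3 and 52.8 CPM in KO, against 73.1, 94.1 and 118 CPM as the lowest, median and highest in WT. It was lower in every KO library, by log2 values of -1.03 against WT, -1.22 against APOE33 and -1.28 against APOE44 (edgeR adjusted p = 2.18e-05, 9.8e-05 and 4.23e-05). Apoc4, another apolipoprotein gene, also rose, and is described with the neighbours of Apoe.

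Of 26 fatty acid and lipid droplet genes, 11 (42.3%) rose and 5 (19.2%) fell against WT (median 0.12), where the share of falls is near the 21.5% of all genes and that of rises above their 20.9%. Against APOE33 12 rose and 4 fell, where 10.9% and 11.9% of all genes did. Acly, Acaca and Fasn, which make fatty acids from citrate, rose by 0.95, 0.90 and 0.84 (edgeR adjusted p = 1.03e-09, 4.56e-06 and 7.76e-07). The desaturase genes Fads1 and Fads2 rose by 0.72 and 2.15 against WT and by 0.76 and 2.10 against APOE33 (edgeR adjusted p = 4.73e-07, 0.000175, 4.44e-06 and 0.00153). Scd2, the main stearoyl-CoA desaturase of brain, had 425, 598, 538 and 435 CPM in KO, against a lowest of 82.1, a median of 115 and a highest of 142 CPM in WT (2.13, SE 0.34, edgeR adjusted p = 5.23e-05). Its mean was 350 ± 167 CPM in the 6 APOE33 and 370 ± 136 CPM in the 6 APOE44 libraries (SD), and KO did not pass against either (0.50 and 0.43; edgeR adjusted p = 0.395 and 0.432). Plin2, which coats lipid droplets, fell by 1.27, and Lpl, lipoprotein lipase, by 0.62 against WT (edgeR adjusted p = 2.16e-06 and 0.000192), and their values against APOE33 were -0.21 and 0.16 (edgeR adjusted p = 0.423 and 0.406). The carriers Fabp5 and Fabp4 stood higher in KO than in APOE33, by 1.28 and 1.53 (edgeR adjusted p = 0.000196 and 0.00136). With male libraries alone, which leaves out KO replicate 1, 3 genes fell.

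Of 31 lysosomal genes, 17 (54.8%) rose and 2 (6.45%) fell against WT (median 0.23), beside 20.9% and 21.5% of all genes. Against APOE33 14 rose and 6 fell, beside 10.9% and 11.9% of all genes. Grn, progranulin, had 3613, 3154, 3214 and 3284 CPM in KO, against a lowest of 1928, a median of 1980 and a highest of 2151 CPM in WT. It was higher in every KO library, by 0.72 against WT, 0.35 against APOE33 and 0.27 against APOE44 (edgeR adjusted p = 4.5e-08, 0.00406 and 0.0123). Psap, the precursor of saposins that present lipids to hydrolases, rose by 0.72, Glb1, beta-galactosidase, by 0.99 and Lamp1, a membrane protein of lysosomes, by 0.62 (edgeR adjusted p = 2.36e-05, 3.52e-07 and 3.18e-07). Npc1 and Npc2, which pass cholesterol out of the lysosome, rose by 0.32 and 0.43 against WT and by 0.49 and 0.21 against APOE33 (edgeR adjusted p = 0.000219, 1.09e-05, 0.000146 and 0.0378). The falls were of Ctsl, a cathepsin, and Tfeb, a master regulator of lysosomal genes (-0.37 and -0.23; edgeR adjusted p = 0.027 and 0.00253). Lipa, the acid lipase that frees cholesterol from its esters, did not pass (0.14, edgeR adjusted p = 0.393). Outside the list, 3 lysosomal enzymes were among the 5 most abundant called genes with an absolute log2 fold change of at least 1. Man2b1, alpha-mannosidase, rose by 1.22, Hgsnat, which acetylates heparan sulfate, by 1.11 and Pld3, an exonuclease, by 1.10 (edgeR adjusted p = 1.31e-06, 3.95e-09 and 3.3e-07). Hgsnat was higher than in APOE33 by 0.81 (edgeR adjusted p = 2.52e-05), while Man2b1 and Pld3 stood at 0.30 and 0.35 (edgeR adjusted p = 0.234 and 0.0734). With male libraries alone 11 of the lysosomal genes rose and 1 fell. Leaving out KO replicate 2 or 3 or WT replicate 1, 4 or 5 left 1 fall.

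The list of the disease-associated state had 30 tested genes, with 11 rises (36.7%) and 6 falls against WT (median 0.14), beside 20.9% and 21.5% of all genes, so that the falls are near the share over all genes. In batch 1, 6 rose and 7 fell against APOE33, beside 10.9% and 11.9% of all genes. Against APOE44 8 rose and 9 fell, beside 13.6% and 13.4%, so that within batch 1 rises and falls were both above those shares. Axl, a receptor for dying cells, had 487, 892, 827 and 624 CPM in KO, against a lowest of 139, a median of 154 and a highest of 198 CPM in WT. The KO libraries lay above WT throughout, at 2.20 against WT, 0.74 against APOE33 and 0.70 against APOE44 (edgeR adjusted p = 1.47e-08, 0.0179 and 0.0161). The chemokine gene Ccl6 rose by 1.89, Cd68, a lysosomal glycoprotein, by 0.50 and Gpnmb, a membrane glycoprotein of lipid-laden macrophages, by 0.65 against WT (edgeR adjusted p = 7.82e-10, 1.72e-05 and 0.00755). Gpnmb was also higher than in APOE33, by 1.15 (edgeR adjusted p = 0.00119), with 7540 to 16270 CPM in KO and 6393 to 8635 CPM in WT. Lgals3, a galectin, Igf1, a growth factor, and Lilrb4a, an inhibitory receptor, fell by 0.92, 0.72 and 0.61 (edgeR adjusted p = 9.2e-05, 5.63e-07 and 1.09e-05). Against APOE33 their log2 values were 0.28, -0.19 and -0.01, none of which passed (edgeR adjusted p = 0.26, 0.158 and 0.952). Trem2, the receptor on which the state depends, rose by 0.18 (edgeR adjusted p = 0.0324), and Spp1 (-0.02), Itgax (0.60) and Clec7a (-0.20) did not pass against WT (edgeR adjusted p = 0.941, 0.247 and 0.093). Without KO replicate 1, 6 genes rose and 10 fell, and with male libraries alone 7 rose.

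Homeostatic microglia genes depended on which group KO was set against. Of 23, 11 (47.8%) rose and 3 fell against WT (median 0.34), beside 20.9% and 21.5% of all genes, whereas 1 rose and 14 fell against APOE33 and 1 rose and 11 fell against APOE44. Those shares stand beside 11.9% and 13.4% of all genes called lower in KO within batch 1. P2ry12, the purinergic receptor that guides microglial processes, had 48.8, 73.7, 73.4 and 66.7 CPM in KO, against a lowest of 19.5, a median of 27.1 and a highest of 53.5 CPM in WT. KO replicate 1 lay within the WT range and the other 3 above it (1.03, SE 0.23, edgeR adjusted p = 0.00139). APOE33 had more, 104 ± 16.1 CPM, and APOE44 100.1 ± 21.7 CPM (SD, n = 6 each), with KO lower by log2 values of -0.70 and -0.63 (edgeR adjusted p = 0.0148 and 0.0176). Tmem119, a surface marker of microglia, was at 0.39 against WT, which did not pass, and at -1.73 against APOE33 (edgeR adjusted p = 0.0551 and 4.94e-06). Sall1, a transcription factor of microglial identity, was at -0.49 against WT and -2.42 against APOE33 (edgeR adjusted p = 0.197 and 0.00032). The ectonucleotidase gene Entpd1 rose by 0.73, and Tgfbr1, a TGF-beta receptor, and Rhob, a small GTPase, fell by 0.61 and 0.61 against WT (edgeR adjusted p = 2.46e-06, 2.89e-06 and 1.29e-05). Entpd1, Tgfbr1 and Rhob moved the same way against APOE33, by 0.57, -0.41 and -0.74 (edgeR adjusted p = 0.00118, 0.000632 and 8.89e-05). With male libraries alone 4 homeostatic genes rose, and without KO replicate 1 there were 5 falls.

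**Figure D4:**
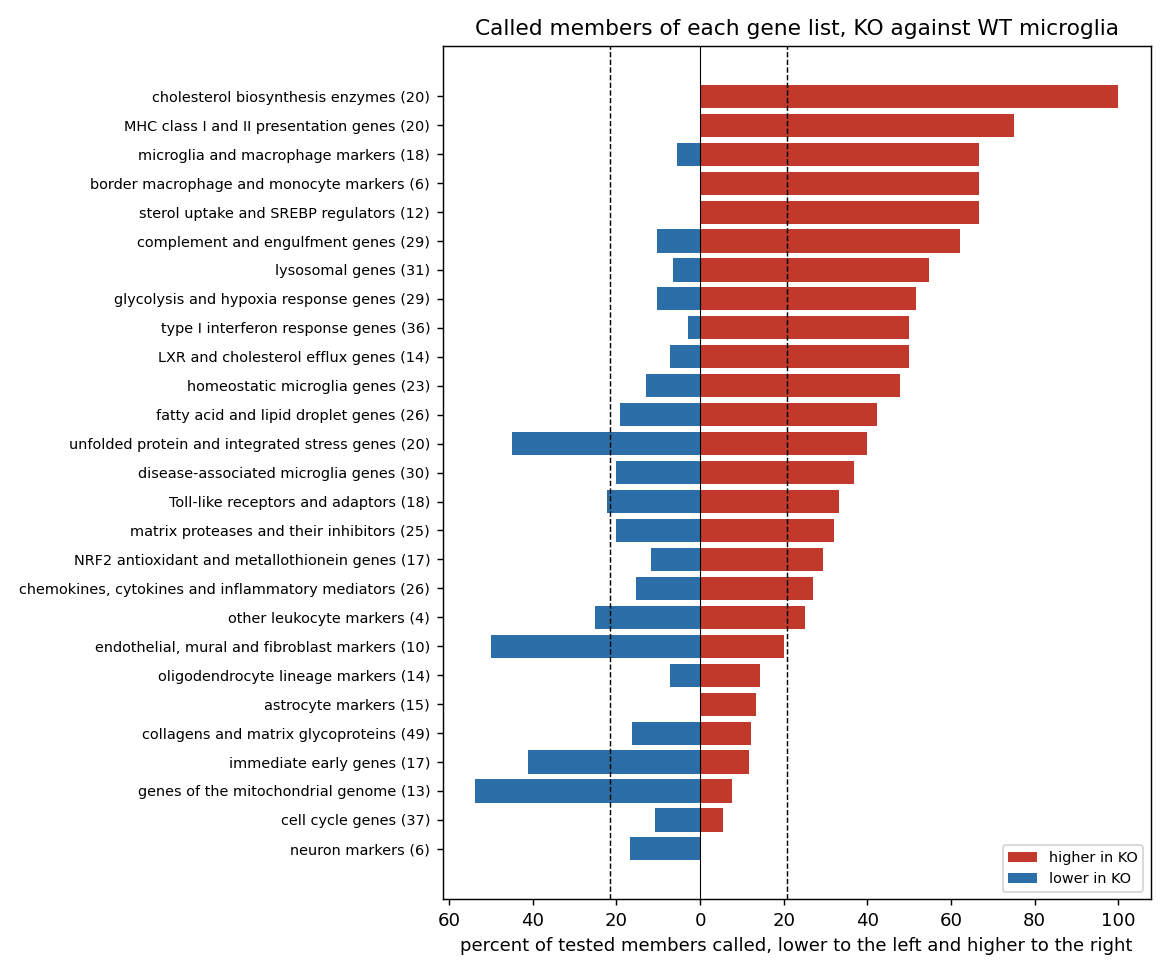
Bars give the share of each list's tested members (number in brackets) called higher in KO than in WT, to the right, and called lower, to the left, in percent. Dashed lines mark the shares over all tested genes, 20.9% higher and 21.5% lower. The cholesterol biosynthesis enzymes reach 100% higher, and the genes of the mitochondrial genome have the longest bar to the left at 53.8%.

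Of 36 type I interferon response genes, 18 rose and 1 fell against WT (median 0.70), beside 20.9% and 21.5% of all genes, and 35 log2 values were positive. Their summed level was 1429, 1512, 1527 and 1230 CPM in KO, against 891 to 1031 CPM in WT. Stat2, a transcription factor of the pathway, had 96.2, 90.0, 95.4 and 76.0 CPM in KO, against a lowest of 45.6, a median of 56.3 and a highest of 61.8 CPM in WT. It was higher in all 4 KO libraries, by 0.74 (SE 0.14, edgeR adjusted p = 3e-04). Irf7, Usp18 and Ifit2, an amplifying factor, a brake of the response and an antiviral RNA-binding protein, rose by 1.05, 1.10 and 1.60 (edgeR adjusted p = 0.0153, 0.0131 and 0.00648), and Bst2, which tethers viruses, by 0.88 (edgeR adjusted p = 0.00088). Isg15 (0.47) and Mx1 (1.04) did not pass (edgeR adjusted p = 0.204 and 0.0558). Within batch 1, 4 genes were higher in KO than in APOE33 (median 0.04), near the 10.9% of all genes. In KO 5 were lower than in APOE44 (median -0.42), near the 13.4% of all genes. Set against WT, 14 were higher in APOE33 (median 0.48) and 34 in APOE44 (median 1.14), beside 22.2% and 22.3% of all genes. Without KO replicate 3, 11 genes rose against WT, and with male libraries alone 10 did.

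Of 20 antigen presentation genes, 15 (75.0%) rose against WT, where 20.9% of all genes did, and 5 did not pass (median 0.47). The other batch 1 groups gave similar counts against WT, 14 higher and 2 lower in APOE33 and 15 higher and none lower in APOE44. Of all genes 22.2% and 22.6% were called higher and lower in APOE33, and 22.3% and 23.1% in APOE44. Within batch 1, of 19 tested, 6 were higher and 2 lower in KO than in APOE33, beside 10.9% and 11.9% of all genes. In KO 4 were higher than in APOE44, beside 13.6% of all genes. In the class I pathway H2-K1, B2m, Tap1 and Psmb9 rose by 0.72, 0.46, 0.51 and 0.71, and Tapbp, the loading chaperone tapasin, by 0.94 (edgeR adjusted p = 2.88e-07, 3.43e-06, 0.000425, 7.59e-06 and 3.66e-08). Of the exonic bases of Tapbp, 29.0% also lie in another gene, so its counts are uncertain. In the class II pathway H2-DMa, which edits the bound peptide, had 75.2, 120, 105 and 86.5 CPM in KO, against a lowest of 21.1, a median of 23.8 and a highest of 33.6 CPM in WT (1.90, SE 0.14, edgeR adjusted p = 5.37e-09). Cd74, the invariant chain, rose by 2.42 at 11.1 to 15.1 CPM in KO and 1.87 to 3.47 CPM in WT (edgeR adjusted p = 2.29e-08). Both were near the other batch 1 groups, H2-DMa at 0.01 and Cd74 at -0.56 against APOE33 (edgeR adjusted p = 0.963 and 0.0446). The classical class II genes H2-Ab1 and H2-Eb1 were under 1.5 CPM in every KO and WT library and did not pass, nor did Ciita, the class II activator. Without KO replicate 4, 1 of the 20 genes was called lower.

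Cytokines, the early response and Toll-like receptors gave mixed results. Of 26 tested chemokines, cytokines and inflammatory mediators, 7 rose and 4 fell against WT (median 0.10), together 42.3%, near the 42.4% of all genes. Of 25 tested within batch 1, 2 rose and 14 fell against APOE33 and 1 rose and 18 fell against APOE44, where 11.9% and 13.4% of all genes were called lower. Between APOE33 and WT, 20 were higher and 1 lower in APOE33, beside 22.2% and 22.6% of all genes. Ccl9 and Il18 rose by 0.98 and 0.68 against WT (edgeR adjusted p = 1.39e-06 and 3.28e-05). Nlrp3, the inflammasome sensor, was at -0.40 against WT, -1.30 against APOE33 and -1.67 against APOE44 (edgeR adjusted p = 0.054, 9.48e-06 and 8.49e-07). Il1b was at 0.76, -1.61 and -1.30 in the same order (edgeR adjusted p = 0.0912, 0.00664 and 0.013), and Ptgs2, the inducible cyclooxygenase, at -0.95, -3.16 and -3.55 (edgeR adjusted p = 0.0167, 3.26e-05 and 9.29e-06). Tnf did not pass against WT (-0.21, edgeR adjusted p = 0.198). With male libraries alone 2 genes of the list fell.

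Among 17 immediate early genes, which respond to stimuli and to handling of cells, 7 (41.2%) fell and 2 (11.8%) rose against WT (median -0.47), beside 21.5% and 20.9% of all genes. In KO 10 were lower than in APOE33 and 12 lower than in APOE44, beside 11.9% and 13.4% of all genes. Fos had 19.2, 19.2, 24.3 and 26.5 CPM in KO, against a lowest of 71.1, a median of 81.6 and a highest of 102 CPM in WT. Every KO library was lower, by log2 values of -1.91 against WT, -1.23 against APOE33 and -1.07 against APOE44 (edgeR adjusted p = 1.05e-07, 0.00043 and 0.000684). Jun, its partner, fell by 0.80 and Egr3 by 1.56 (edgeR adjusted p = 2.34e-06 and 0.0154), and Egr1, at 99.0 to 123 CPM in KO and 158 to 218 CPM in WT, had a log2 value of -0.78 that did not pass (edgeR adjusted p = 0.112). With the 2 groups alone in the fit, 11 fell and 4 rose, and with male libraries alone 1 rose. Of 18 Toll-like receptors and adaptors, 6 (33.3%) rose and 4 (22.2%) fell against WT, the falls near the 21.5% of all genes, and 2 fell among male libraries. Against APOE33 2 rose and 2 fell, near the 10.9% and 11.9% of all genes. Unc93b1, which escorts receptors to endosomes, rose by 0.68 against WT and the kinase gene Irak1 by 0.50, and Ly96, the partner of TLR4, fell by 0.41 (edgeR adjusted p = 2.62e-06, 1.67e-10 and 0.00103). Their values against APOE33 were 0.01, 0.17 and 0.01, of which only that of Irak1 passed (edgeR adjusted p = 0.948, 0.00242 and 0.972).

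Of 29 complement and engulfment genes, 18 (62.1%) rose and 3 (10.3%) fell against WT (median 0.34), beside 20.9% and 21.5% of all genes. Against APOE33 6 rose and 6 fell, beside 10.9% and 11.9% of all genes. C3 (chromosome 17, 57203970 to 57228136), the central complement component, had 329, 527, 404 and 420 CPM in KO, against a lowest of 65.6, a median of 80.4 and a highest of 122 CPM in WT. It was higher throughout, by 2.34 against WT, 0.79 against APOE33 and 0.84 against APOE44 (edgeR adjusted p = 1.36e-09, 0.00106 and 0.000359). C1qa, C1qb and C1qc, the subunits that start the classical pathway, rose by 0.45, 0.55 and 0.52 against WT (edgeR adjusted p = 0.000226, 3.26e-06 and 1.73e-05), and against APOE33 their values were -0.23, 0.01 and -0.07 (edgeR adjusted p = 0.0552, 0.903 and 0.571). Cfp, properdin, rose by 2.26 against WT and was lower than in APOE33 by 0.60 (edgeR adjusted p = 2.48e-05 and 0.0157). The anaphylatoxin receptor genes C5ar1 and C3ar1 fell by 1.49 and 0.67 against WT (edgeR adjusted p = 6.48e-10 and 4.35e-07). Fcgr2b, an inhibitory Fc receptor, rose by 0.33 against WT and by 0.83 against APOE33 (edgeR adjusted p = 0.000248 and 2.3e-06). Of 6 tested markers of border macrophages, 4 (66.7%) rose against WT (median 1.60), beside 20.9% of all genes. Their summed level was 1453 to 1611 CPM in KO and 1123 to 1299 CPM in WT. In KO 5 were higher than in APOE33 (median 1.03) and 4 higher than in APOE44 (median 0.83), beside 10.9% and 13.6% of all genes. Against WT, 1 was higher and 1 lower in APOE33 (median -0.02), and 2 higher and 1 lower in APOE44 (median 0.06). Of all genes 22.2% and 22.6% were called higher and lower in APOE33, and 22.3% and 23.1% in APOE44. Mrc1, the mannose receptor, had 286, 386, 381 and 296 CPM in KO, against 83.7, 101 and 165 CPM as the lowest, median and highest in WT, and Pf4, a platelet factor chemokine, 61.9 to 65.4 and 13.6 to 33.3 CPM. Cd163, Lyve1, Ly6c2 and Clec10a were too low to test. The part of these markers in the rise of scavenger and complement genes was not tested, and in such bulk libraries more cells of a type and more RNA per cell cannot be told apart.

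Of 29 glycolysis and hypoxia response genes, 15 (51.7%) rose, 3 (10.3%) fell and 11 did not pass against WT (median 0.34), beside 20.9% and 21.5% of all genes called higher and lower. Against APOE33 14 rose and 2 fell, beside 10.9% and 11.9%. Gapdh, a glycolytic enzyme with many processed copies whose counts are therefore uncertain, rose by 0.53, Gpi1, the isomerase, by 0.50, Aldoa, the aldolase, by 0.34 and the hexokinase gene Hk3 by 0.96 (edgeR adjusted p = 6.19e-07, 1.07e-06, 0.000396 and 2.32e-06). Pfkp, a phosphofructokinase, fell by 1.33 while its paralogs Pfkl and Pfkm rose by 0.56 and 0.48 (edgeR adjusted p = 5.95e-07, 8.51e-06 and 0.000141). Against APOE33 Pfkp stood at -0.10 and did not pass, while Gapdh, Gpi1 and Hk3 were higher by 0.32, 0.23 and 0.63 (edgeR adjusted p = 0.657, 0.00261, 0.0256 and 0.00347). Pkm (0.00) and Slc2a1 (-0.03), the last enzyme and the glucose carrier, did not pass. The falls were down to 1 without KO replicate 2 or 3 or WT replicate 3.

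Of 20 genes of the unfolded protein and integrated stress responses, 8 (40.0%) rose and 9 (45.0%) fell against WT, beside 20.9% and 21.5% of all genes. Atf4, a transcription factor of the integrated stress response, fell by 0.74, Ddit3 by 0.77, Trib3 by 1.42, Asns, asparagine synthetase, by 1.72 and Psat1, of serine synthesis, by 0.64 (edgeR adjusted p = 2.34e-06, 7.01e-05, 0.000273, 2.36e-05 and 0.00047). Atf4 had 91.0, 84.9, 96.0 and 91.4 CPM in KO, against a lowest of 146, a median of 148 and a highest of 160 CPM in WT. The same 5 genes were lower than in APOE33, by log2 values of -0.70, -0.69, -1.83, -0.84 and -0.92 (edgeR adjusted p = 0.000365, 0.00304, 0.000609, 0.0411 and 0.000193). Among the rises against WT were Hyou1, a chaperone (0.48), and 2 genes that ATF4 is also known to induce, Sesn2, an inhibitor of growth signalling (0.54), and Slc7a11, the cystine carrier (0.84; edgeR adjusted p = 9.71e-08, 1.95e-06 and 0.000128). Hyou1 and Sesn2 were higher than in APOE33 by 0.27 and 0.29, while Slc7a11 did not pass at -0.22 (edgeR adjusted p = 0.00253, 0.00649 and 0.379). Slc7a11 was also higher in APOE33 than in WT, by 1.02 (edgeR adjusted p = 4.23e-06). Leaving out KO replicate 2 or 3 or WT replicate 5 left 5 rises, as did male libraries alone.

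Of 17 NRF2 and metallothionein genes 5 rose and 2 fell (median 0.06), together 41.2%, near the 42.4% of all genes. Gsr, glutathione reductase, rose by 0.49 and Prdx1, a peroxidase, fell by 0.53, while Hmox1 (0.20) and Nqo1 (-0.25) did not pass (edgeR adjusted p = 3.49e-06, 0.00101, 0.35 and 0.462). Gsr and Prdx1 stood at -0.07 and 0.09 against APOE33, neither of which passed (edgeR adjusted p = 0.38 and 0.674). The falls were down to 1 without KO replicate 2 or 3 or WT replicate 1, 3 or 6. Of 37 cell cycle genes 2 rose and 4 fell, 16.2% against 42.4% of all genes, and the proliferation marker Mki67 ran from 6.62 to 40.9 CPM in KO and from 8.56 to 34.0 CPM in WT (edgeR adjusted p = 0.916). Mcm6, a subunit of the replicative helicase, fell by 0.90 (edgeR adjusted p = 1.99e-07). The cell cycle median was -0.10, and with male libraries alone it was 0.38 with 2 falls. Falls numbered 2 without KO replicate 1 and 7 without KO replicate 2, and rises 1 without KO replicate 2 or 3 or WT replicate 2, 4, 5 or 6.

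Of 13 genes of the mitochondrial genome, 7 (53.8%) fell and 1 (7.69%) rose, beside 21.5% and 20.9% of all genes. The cytochrome oxidase gene mt-Co1 ran from 6785 to 7787 CPM in KO and 5337 to 6877 CPM in WT (0.27, edgeR adjusted p = 0.00544), and mt-Cytb and mt-Nd2 fell by 0.39 and 0.28 (edgeR adjusted p = 0.00061 and 0.0117). The larger falls, of mt-Co2, mt-Co3, mt-Atp6, mt-Atp8 and mt-Nd4l, by 2.07 to 3.64, are uncertain: these genes stood at 0.122 to 1.88 CPM in KO and 1.22 to 10.9 CPM in WT, and near-identical nuclear copies such as Gm28661 share their sequence. Gm28661 ran from 1.23 to 1.44 CPM in KO and from 5.58 to 9.38 CPM in WT. Rises numbered 3 without KO replicate 2 or WT replicate 5, 2 with the 2 groups alone in the fit and 0 among male libraries. The ribosomal RNA gene mt-Rnr2, outside the list, had a log2 value of -1.04 (edgeR adjusted p = 0.00688), with 403 to 484 CPM in KO and 616 to 914 CPM in 5 WT libraries, and 2506 CPM in WT replicate 4. With the 2 groups alone in the fit it did not pass (edgeR adjusted p = 0.12).

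Of 49 tested collagens and matrix glycoproteins, 6 (12.2%) rose and 8 (16.3%) fell (median -0.02), a smaller share than the 20.9% and 21.5% of all genes. Fn1, fibronectin, had 519, 930, 1049 and 798 CPM in KO, against a lowest of 150, a median of 226 and a highest of 292 CPM in WT. It was higher in every KO library, by 1.76 (edgeR adjusted p = 0.000351), and differed from APOE33 by -0.40 and from APOE44 by 0.50, neither of which passed (edgeR adjusted p = 0.468 and 0.317). Thbs1, an adhesive glycoprotein, and Emilin1, of elastic fibres, rose by 1.92 and 1.74 against WT (edgeR adjusted p = 0.000233 and 0.000457). Against APOE33 Emilin1 was higher by 1.94 and Thbs1 stood at -0.52 (edgeR adjusted p = 0.00558 and 0.422). Dcn, Col1a1, Col1a2, Col3a1 and Thbs4 had no count in any KO library. Taking a floor of 3 counts over the KO group (0.00765 CPM), they were at least 96.1-fold, 68.5-fold, 75.0-fold, 47.6-fold and 13.3-fold lower than in WT, where Dcn averaged 0.736 and Col1a1 0.525 CPM. The other batch 1 groups were low as well: Dcn averaged 0.0106 CPM in APOE33 and 0.00663 CPM in APOE44, and Col1a2 0.0164 and 0.0187 CPM, against 0.574 CPM in WT. Dcn, Col1a1 and Col1a2 are also markers of fibroblasts. Of the 10 tested endothelial, mural and fibroblast markers 2 rose and 5 fell, beside 20.9% and 21.5% of all genes (summed level 150 to 256 CPM in KO and 175 to 227 CPM in WT). Their part in the matrix falls was not tested. Without WT replicate 6, 5 matrix genes fell.

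Of 25 tested matrix proteases and inhibitors, 8 (32.0%) rose and 5 fell (median 0.15), beside 20.9% and 21.5% of all genes. Mmp14 (chromosome 14, 54431612 to 54445364), a membrane-anchored collagenase, had 243, 404, 356 and 326 CPM in KO, against a lowest of 97.8, a median of 118 and a highest of 142 CPM in WT. It was higher in every KO library, by 1.51 against WT, 1.24 against APOE33 and 0.94 against APOE44 (edgeR adjusted p = 5.14e-08, 3.99e-05 and 0.000172). Htra3, a secreted serine protease, rose by 3.08 against WT and stood at -0.84 against APOE33 (edgeR adjusted p = 1.71e-05 and 0.251). The sheddase gene Adam10 rose by 0.54 against WT and was lower than in APOE33 by 0.26, and Plaur, the urokinase receptor, fell by 1.04 against WT (edgeR adjusted p = 2.46e-07, 0.00283 and 9.12e-07). Plaur stood at 0.12 against APOE33, which did not pass (edgeR adjusted p = 0.566). Falls numbered 8 without KO replicate 1 and 3 without KO replicate 2.

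The cells carried the markers of microglia in both groups. Their summed level over 18 markers was 25960 to 27110 CPM in KO and 19340 to 22440 CPM in WT. Against WT 12 (66.7%) rose and 1 (5.56%) fell (median 0.37), beside 20.9% and 21.5% of all genes, with 6 rises among male libraries. Against APOE33 2 rose and 6 fell, beside 10.9% and 11.9% of all genes. Against APOE44 3 rose and 5 fell, beside 13.6% and 13.4%. In APOE33 and in APOE44 alike, 14 were higher than in WT, beside 22.2% and 22.3% of all genes. Aif1, C1qa and Laptm5 rose by 0.63, 0.45 and 0.59, and Ptprc, the common leukocyte antigen, fell by 0.36 (edgeR adjusted p = 1.34e-05, 0.000226, 1.5e-06 and 1e-04). Markers of other cells were low: neuron markers summed to 0.583 to 1.89 CPM in KO and 1.06 to 1.45 CPM in WT, and other leukocyte markers to 3.61 to 4.84 and 2.11 to 3.59 CPM. Astrocyte markers summed to 82.7 to 125 CPM in KO and 46.2 to 88.8 CPM in WT. Of 15 tested, 2 (13.3%) rose, Aldh1l1 and Aldoc, a smaller share than the 20.9% of all genes, while Gfap did not pass (0.40, edgeR adjusted p = 0.474). Oligodendrocyte lineage markers summed to 148 to 180 CPM in KO and 123 to 199 CPM in WT, of which Mbp had 106 to 113 CPM in KO and 71.9 to 81.5 CPM in WT, and Cspg4 31.3 to 65.0 and 43.8 to 120 CPM. Of 14 tested oligodendrocyte markers, 6 were lower in KO than in APOE33 (median -2.06) and 9 lower than in APOE44 (median -3.50). None was higher in either comparison, and 11.9% and 13.4% of all genes were called lower.

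Genes that neighbour Apoe on chromosome 7 were set beside the rest of the genome. Within 5 Mb of Apoe, 62 of 119 tested genes (52.1%) were called, 29 higher and 33 lower, and 26 (21.8%) had an absolute log2 fold change of at least 1, against 42.4% and 10.8% of all genes. From 5 to 20 Mb away the shares were 41.5% and 14.0%, and on the rest of chromosome 7 39.2% and 10.0%. Against APOE33, 29 of 111 genes within 5 Mb were called (26.1%, with 22.8% over all positioned genes), and against APOE44 31 of 111 (27.9%, with 26.9%). C5ar2 (chromosome 7, 16234585 to 16244154), a decoy receptor for C5a, had 1.57, 1.96, 1.42 and 1.24 CPM in KO, against a lowest of 12.1, a median of 12.7 and a highest of 14.3 CPM in WT. Its fall was 3.07 on the log2 scale (SE 0.23, edgeR adjusted p = 3.29e-09), and APOE33 at 1.89 ± 0.54 and APOE44 at 1.71 ± 0.50 CPM (SD, n = 6 each) were as low as KO. The centrosome gene Ccdc61 fell by 1.51 and Ccdc9 by 0.50 (edgeR adjusted p = 2.03e-09 and 1.65e-08), with C5ar1 between them in size. Ccdc61 averaged 3.755 CPM in KO, 3.49 in APOE33, 3.22 in APOE44 and 10.6 CPM in WT. KO did not pass against APOE33 or APOE44 for it (edgeR adjusted p = 0.736 and 0.275). Ccdc9 and C5ar1 stood at -0.17 and -0.31 against APOE33 (edgeR adjusted p = 0.0226 and 0.0149) and at -0.17 and -0.38 against APOE44 (edgeR adjusted p = 0.0159 and 0.00311). Apoc4 (chromosome 7, 19678083 to 19681479) had 6.95, 11.8, 8.37 and 7.62 CPM in KO, against a lowest of 0.0639, a median of 0.0855 and a highest of 0.229 CPM in WT. KO was higher by 6.39 (SE 0.54), and APOE33 and APOE44 lay between, at 1.17 ± 0.74 and 0.888 ± 0.49 CPM (SD, n = 6 each; edgeR adjusted p = 3.32e-08 against WT, 0.00125 against APOE33 and 0.000325 against APOE44).

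**Figure D5:**
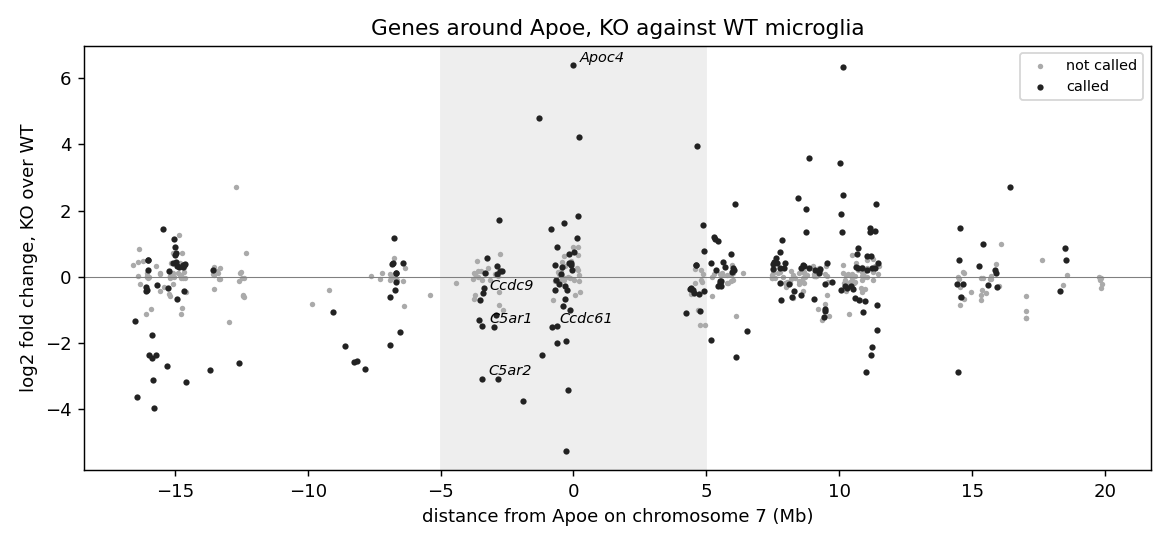
Log2 fold change, KO over WT, of tested genes on chromosome 7 against their distance from Apoe in Mb, without Apoe itself. Black points are called and grey points are not, and the shaded band is 5 Mb to each side, where 62 of 119 genes were called. C5ar2 lies at -3.07 and Apoc4 at 6.39.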

How the data were processed

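Gene counts of all 22 microglia libraries were analysed, of which the 10 KO and WT libraries are the comparison and the 12 APOE33 and APOE44 libraries a reference. The deposited values are raw read counts per mouse gene, made by the authors with STAR 2.5.3a and featureCounts, per the submitters' processing notes, which also name edgeR 3.26.8. The only build they name is hg38, although the identifiers are mouse, and the sources used here do not give the mouse build or annotation. Gene names and positions come from GENCODE M21 on GRCm38, which held 54079 of the 54146 identifiers (52480 in the same version).

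Counts were scaled by TMM and tested with edgeR 4.0.16 (R 4.3.3, limma 3.58.1) by the robust quasi-likelihood F test with sex as a covariate, after filterByExpr, and p values were adjusted by Benjamini and Hochberg over all tested genes. A gene was called at an adjusted p under 0.05 with no minimum fold change. KO against WT was fitted on 22 libraries and KO against APOE33 or APOE44 on the 16 of batch 1. DESeq2 1.42.0 was an alternative. The same steps were checked on simulated counts of 17660 genes, where 47.7%, 70.1% and 82.8% of genes changed by a log2 fold of 0.5, 1 and 2 were called between KO and WT. In that simulation 65, 67 and 64 genes were changed by these folds, with no batch or sex effect. In the real comparison 42.4% of genes were called, so these rates do not give its sensitivity.

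By rule, the named genes are Apoe, the 10 largest rises and 10 largest falls among called genes with a mean log2 CPM of at least 3 and no overlap between KO and WT libraries (leaving out predicted genes, Xist, Tsix and chromosome Y), the 5 most abundant called genes with an absolute log2 fold change of at least 1, up to 4 called genes with the smallest adjusted p in each list, and up to 4 called genes within 5 Mb of Apoe. Other list members were added after their values were seen. The members and the 27 lists were chosen with earlier results of these data known. The floor of 3 counts covers counting error only. The SE of a log2 fold change comes from the edgeR fit and includes the variation among libraries. Some genes that the rule names are not reported here, though they stay in the counts and medians of their lists. Alternatives are given in the closing section.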

Additional observations from a re-analysis of the deposited data

Results flagged for a closer look

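In 212 groups of values, 1 library stood far from the others of its group in 13, where chance gives about 1 in 20. Among KO libraries, replicate 1 was lowest for Ikbke at 104.5 CPM (the others 124.2 to 124.9), and replicate 2 lowest for mt-Rnr2 at 402.6 CPM (the others 472.7 to 483.8).

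Among WT libraries, replicate 4 was highest for mt-Rnr2 at 2506 CPM (616.4 to 913.9). Replicate 6 was highest for Ptgs1 at 31.85 CPM (12.46 to 18.84) and for Ccl12 at 2.057 CPM (0.2566 to 0.9042). Replicate 5 was highest for Tm7sf2 at 10.72 CPM (8.091 to 9.025) and lowest for Ifi47 at 2.18 CPM (2.834 to 3.207). Replicate 1 was highest for Apoc4 at 0.229 CPM (0.0639 to 0.1026) and for Atf3 at 300.2 CPM (283.5 to 287.9). Replicate 3 was highest for Jun at 118.0 CPM (103.7 to 106.8), for Mmp19 at 22.45 CPM (19.44 to 19.72) and for the summed neuron markers at 1.447 CPM (1.055 to 1.154), and lowest for the summed endothelial, mural and fibroblast markers at 175.2 CPM (208.4 to 227.0).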

How the results depend on the processing

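Between KO and WT, 6519 to 7963 genes were called with a 1 CPM filter, no filter, RLE or upper-quartile scaling, a RIN covariate, no sex term, only the 2 groups in the fit or DESeq2, against 7671. With male libraries alone the counts were 4820 for KO against WT, 1068 for KO against APOE33, 1854 for KO against APOE44, 2964 for APOE33 against WT and 3908 for APOE44 against WT. With a minimum absolute log2 fold change of 1 they were 1956, 722, 790, 1989 and 2229 in that order. Leaving out 1 library at a time gave 6803 to 7369, 2724 to 3855, 3337 to 4396, 7474 to 7986 and 7553 to 7939. The cause of these moves was not tested.

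Replicate numbers are shared by the groups but do not pair KO and WT libraries (correlations of same-numbered libraries -0.126, -0.093, 0.0698 and 0.0293). A fit with replicate number as a block held only the 2 groups compared and the replicate numbers found in both. Beside KO it thus left out WT replicates 5 and 6, and the block and the smaller fit cannot be told apart. It called 3354 genes between KO and WT, 861 between KO and APOE33 and 4300 between KO and APOE44. Between APOE33 and WT it called 6868, and between APOE44 and WT 8063. Of the named genes, 1 lost its call with 1 library left out, Gins2 without KO replicate 1. The other alternatives gave 18 lost calls: Uchl1 and Gins2 among males, mt-Rnr2 with only the 2 groups in the fit, and 15 under the block, Cst7, Cd38, Ccr1, Cd5l, Nbea, Cd36, Nanos1, Igfbp5, mt-Rnr2, Stat2, Ifi44, Atf3, E2f1, Gins2 and Slc7a11. No named gene changed direction. Batch and genotype cannot be told apart under any alternative.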
